A study of Rattus norvegicus with 12 samples.

Results

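The effect of estradiol (E2), the main ovarian estrogen, on gene expression in the uterus of casein-fed rats was measured by RNA-seq. The comparison holds 6 of the 12 libraries of the series, 3 of the group CAS-E2 and 3 of the group CAS. Genes were taken into it by a rule on level alone: 9875 of 16493 genes reached an FPKM of 1 in 3 or more of these 6 libraries. FPKM counts the fragments of a gene per kilobase of transcript, scaled to the mapped reads of the library. CAS rats were ovariectomized Sprague Dawley females whose dietary protein was casein, from milk. CAS-E2 rats were ovariectomized females on that diet that also received E2 at 5 μg/kg/d from osmotic minipumps under the skin. By the methods, pumps of the rats without E2 held the polyethyleneglycol vehicle only. By the study's methods, diets began on postnatal day (PND) 30, ovaries were removed on PND50 and uteri were collected on PND65, although other parts of the study give a slightly younger age and a shorter feeding period. The other 6 libraries, from rats fed soy protein isolate without E2 (SPI) or with it (SPI-E2), share no sample with CAS or CAS-E2. Each library was a pool of RNA from 2 whole uteri, so errors are between pools of animals of a single strain, and uterine layers were not separated. Libraries of one group were combined for sequencing, so that lane and group cannot be told apart.

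Estrogen acts on the uterus mainly through the nuclear receptor encoded by Esr1, which binds DNA at estrogen response elements or through other factors such as AP-1, the dimer of Fos and Jun proteins. After ovariectomy the organ shrinks, and estrogen given back brings water uptake, growth of the luminal epithelium, secretion into the lumen and an influx of leukocytes. The stroma, the glands and the smooth muscle of the myometrium also carry the receptor and exchange signals of the Hedgehog, Wnt, BMP, IGF and EGF families with the epithelium.

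The files implied 6353210 to 9862180 mapped reads in CAS and 6784309 to 9136216 in CAS-E2. Between 9611 and 9671 genes per CAS library and between 9173 and 9495 per CAS-E2 library had an FPKM of at least 1. Pearson's r of log2(FPKM + 1) across genes, which are not independent replicates, was 0.961 to 0.979 between CAS libraries, 0.935 to 0.976 between CAS-E2 libraries and 0.784 to 0.848 between the groups. At the edge of the rule, the third highest FPKM was 1.0002 for LOC311352 and 1.0012 for Trpc4, just inside, and 0.9993 for Nfatc2 and 0.9991 for Ccne2, just outside. Differences below are CAS-E2 minus CAS on the log2(FPKM + 1) scale, on which 1 stands for a 2-fold change and changes of low genes are understated. A gene was called where the adjusted p was under 0.05 and the change reached 2-fold on the same scale. With a pseudocount of 5 in place of 1, which shrinks changes of low genes further, 104 of the 309 called genes that were followed through the alternatives lost their call, among them Ihh, Igf1r, Notch1, Cacna1d, Hbegf and Aqp3.

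E2 changed the expression of a large part of the genes measured. Of the 9875 genes, 811 rose (8.21%) and 645 fell (6.53%), 14.7% in all. Without the fold cutoff, 3934 genes (39.8%) had an adjusted p under 0.05, of which 1718 were higher and 2216 lower in CAS-E2. Rises were larger than falls: 213 of the called genes rose and 68 fell by at least 4-fold, 100 rose and 11 fell by at least 8-fold, and 16 rose and 1 fell by at least 32-fold. The median difference was 1.51 among genes called higher, -1.29 among genes called lower and -0.07 over all genes tested. In 2377 genes (24.1%) all 3 CAS-E2 libraries lay above all 3 CAS libraries, and in 3113 (31.5%) below them. The genes called higher took 5.72% to 6.36% of the summed FPKM of the tested genes in CAS libraries and 20% to 27.3% in CAS-E2 libraries. The genes called lower took 6.79% to 7.43% in CAS and 1.59% to 2.22% in CAS-E2. A further view is of genes near the limit of detection: 233 genes were under 1 FPKM in every CAS library and at least 1 in every CAS-E2 library, of which 172 were called, and 297 showed the reverse, of which 148 were called. Genes low in one group entered the comparison through the other.

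**Figure D1:**
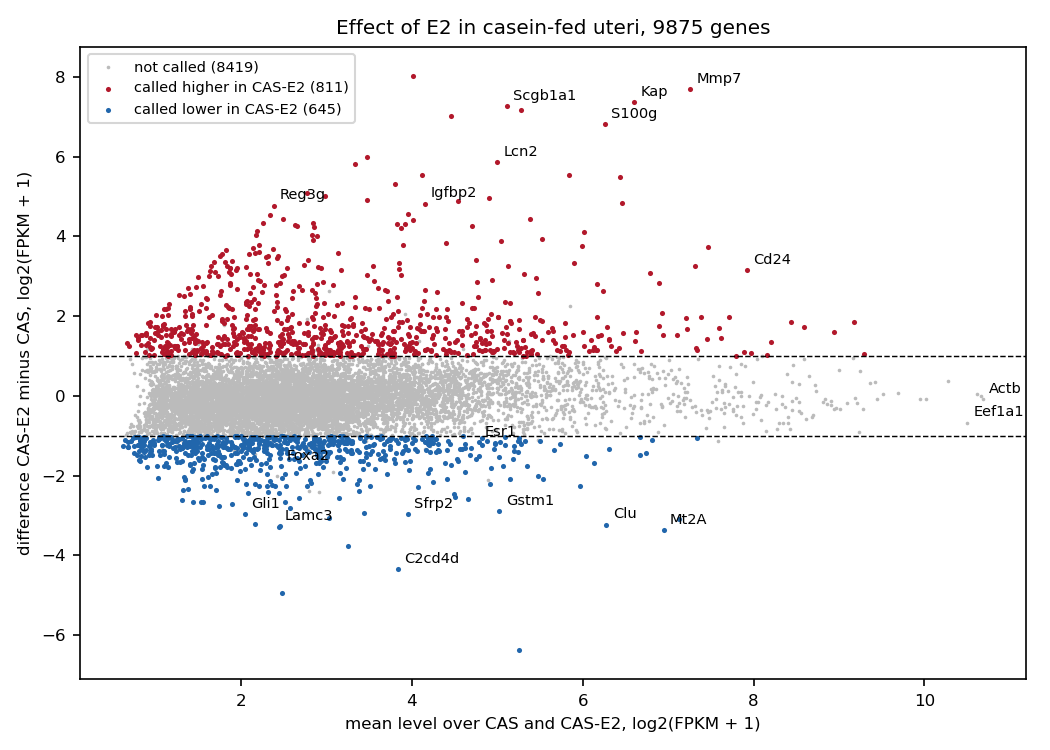
Each point is 1 of the 9875 genes, with the mean level over CAS and CAS-E2 on the x axis and the difference CAS-E2 minus CAS on the y axis, both on the log2(FPKM + 1) scale, and dashed lines at a 2-fold change. The 811 genes called higher (red) reach past a difference of 7, with Mmp7 at 7.69, while most of the 645 genes called lower (blue) lie above -3. Actb (-0.08), a highly expressed gene, lies near 0.

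The 12 largest rises were ranked among called genes in which all 3 CAS-E2 libraries lay above all 3 CAS libraries. They include those of Mmp7, Kap, Scgb1a1, Cuzd1, Lpo and S100g. Mmp7 (chr8:4526018-4533730, plus strand, rn4), a matrix metalloproteinase of glandular epithelia, had FPKM of 15.4, 5.55 and 10.2 in the CAS libraries and 1461, 2000 and 3617 in the CAS-E2 libraries. Its difference was 7.69 ± 0.76 (SE, adjusted p = 6.5e-05), and it was the most abundant of all tested genes in CAS-E2 by group mean. Kap (chr4:170652195-170655239), the kidney androgen-regulated protein, had 14.7, 4.84 and 3.76 FPKM in CAS and 660, 1348 and 2176 in CAS-E2, a difference of 7.36 ± 0.63 (adjusted p = 3.1e-05). The ranking required groups that lay apart, and CAS-E2 3 was the highest library for both genes.

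Scgb1a1, a secretoglobin also called uteroglobin, stood at 2.58, 0.778 and 2.42 FPKM in CAS and at 436, 457 and 394 in CAS-E2 (7.26 ± 0.61, adjusted p = 2.9e-05). Lpo, the lactoperoxidase of milk and airway fluid, stood at 1.53, 0.669 and 0.692 and then at 208, 229 and 331 (7.03 ± 0.41, adjusted p = 4.1e-06). S100g, the calcium-binding calbindin-D9k of uterus and intestine, stood at 13.9, 3.50 and 4.66 and then at 679, 1149 and 687 (6.81 ± 0.63, adjusted p = 5e-05). These differences exceeded the spread between pools, and the CAS pools varied more on the log scale than most genes do. The other members of the 12 largest rises were Cuzd1 (7.16 ± 0.57), Olfm4 (6.00 ± 0.36), Lcn2 (5.87 ± 0.61), which binds bacterial siderophores, Lipf (5.81 ± 0.89), the gastric lipase, and Dmbt1 (5.55 ± 0.53), a scavenger receptor of mucosal fluids. They also included Oxt (5.55 ± 0.40), the oxytocin precursor, and LOC363060 (5.49 ± 0.47). Genes with transcripts under 200 bases were left out of this ranking. Lipf differed most among the CAS-E2 pools, with 148, 234 and 11.2 FPKM, and Lcn2 reached 784 FPKM in CAS-E2 3 against 148 and 125 in the other two.

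The largest falls were in metal-binding, detoxifying, matrix and signaling genes. C2cd4d fell from 62.1, 63.3 and 64.1 FPKM in CAS to 1.10, 1.75 and 4.54 in CAS-E2 (-4.34 ± 0.80, adjusted p = 0.0018). The metallothioneins Mt2A and Mt1a, which bind zinc and copper, were among the abundant genes of CAS, with Mt2A at 490, 331 and 383 FPKM against 23.2, 35.1 and 63.6 in CAS-E2 (-3.37 ± 0.66, adjusted p = 0.0025). Mt1a had 447, 370 and 401 against 31.3, 34.9 and 95.1 (-3.08 ± 0.50, adjusted p = 0.00093), and since both are near-identical genes the split of short reads between them is uncertain. Clu, the secreted chaperone clusterin, had 225, 241 and 245 against 34.5, 25.6 and 16.1 (-3.23 ± 0.40, adjusted p = 0.00022). The ranking of falls took only called genes whose 3 CAS-E2 libraries all lay below the lowest CAS library, as in each of these.

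Lamc3, a laminin chain of basement membranes, was at 16, 15.7 and 16.1 FPKM in CAS and at 0.481, 0.678 and 1.12 in CAS-E2 (-3.28 ± 0.50, adjusted p = 0.00066). Gulo, the last enzyme of vitamin C synthesis, fell by 3.22 ± 0.43 (adjusted p = 0.00035), and Sfrp2, a secreted Wnt inhibitor, by 2.97 ± 0.40 (adjusted p = 0.00037). Gli1, the transcriptional output of Hedgehog signaling, fell by 2.96 ± 0.54 (adjusted p = 0.0017), and Aqp5, a water channel, by 2.93 ± 0.45 (adjusted p = 0.00073). Gstm7 (-3.77 ± 0.52) is described with its gene cluster below, and Tnnc2 (-3.27 ± 0.79), a troponin of fast skeletal muscle, with the markers of other tissues.

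**Figure D2:**
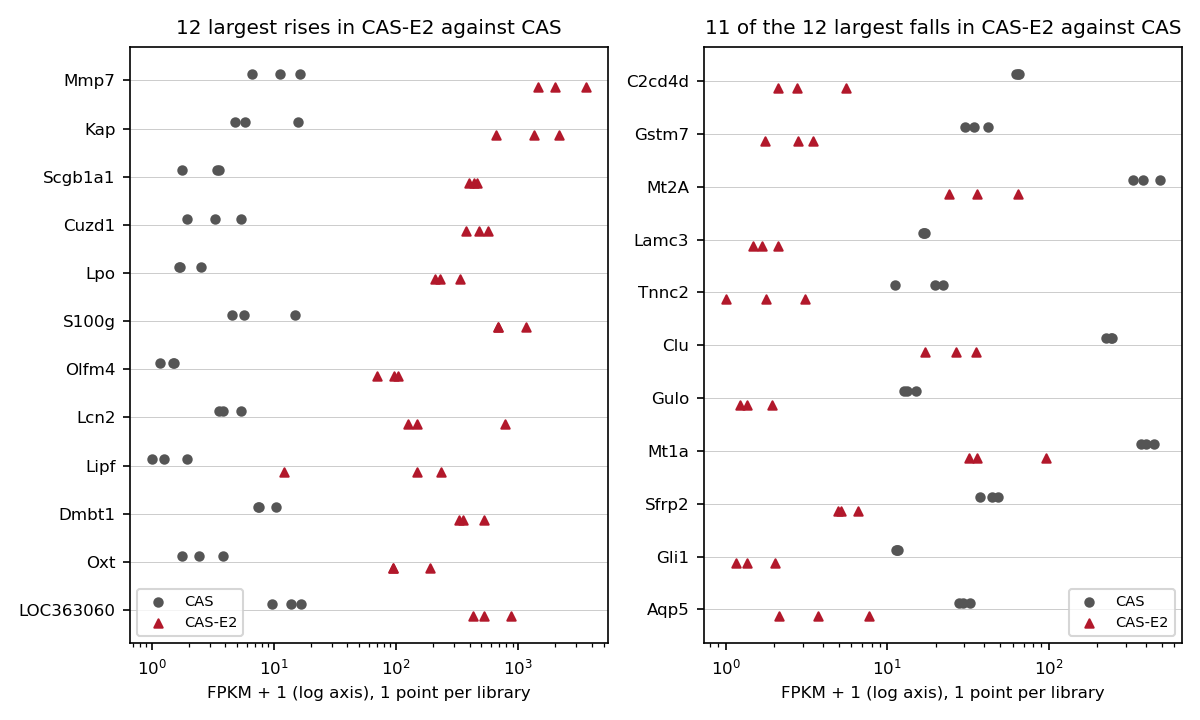
FPKM + 1 of the 12 genes with the largest rises (left) and 11 of the 12 with the largest falls (right), on log axes, with 1 point per library, circles for CAS and triangles for CAS-E2. Only genes whose 3 triangles lie on one side of the 3 circles were ranked. Lipf has the widest spread of triangles, from 11.2 to 234 FPKM.

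By gain of FPKM, the abundant transcripts that rose most after Mmp7, Kap and S100g were those of Tmsb4x and Tmsb10, thymosins that bind actin, Cd24, a surface glycoprotein, and Ly96, which presents lipopolysaccharide to Toll-like receptor 4. Tmsb4x had 313, 312 and 289 FPKM in CAS and 761, 1395 and 1249 in CAS-E2 (1.85 ± 0.34, adjusted p = 0.0018). Cd24 rose from 99.5, 79.1 and 66.3 to 537, 801 and 887 FPKM (3.16 ± 0.38, adjusted p = 0.00018), and Ly96 from 58.6, 44.2 and 41.1 to 515, 620 and 834 (3.74 ± 0.36, adjusted p = 5.9e-05). These 3 genes were already abundant without E2. Large losses of FPKM besides Mt2A, Mt1a and Clu were those of matrix and pump genes. Sparcl1, a matricellular protein, had 199, 175 and 137 FPKM against 57, 67.2 and 56.1 (-1.48 ± 0.35, adjusted p = 0.0062). Fxyd1, a regulator of the sodium pump, had 114, 123 and 180 against 39, 34 and 15.9 (-2.26 ± 0.47, adjusted p = 0.0035). The matrix Gla protein gene Mgp had 256, 251 and 195 against 125, 125 and 86.6 (-1.06 ± 0.28, adjusted p = 0.012). Mgp lost its call without CAS 1 and without CAS-E2 3. The short row of Mir568, at 263, 347 and 461 FPKM in CAS and listed at 0, 0 and 72 in CAS-E2, lost its call without CAS 1, CAS 2, CAS 3, CAS-E2 1 or CAS-E2 2. The genes most abundant in CAS that follow lay on both sides of the median absolute difference over all genes tested, 0.41. Eef1a1, the translation elongation factor, differed by -0.67 ± 0.21, Actb by -0.08 ± 0.24 and Tagln of smooth muscle by 0.04 ± 0.31. Rps29 differed by -0.01 ± 0.20 and Apoe by -0.91 ± 0.38, and none of these was called.

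Markers of the cell types that a uterus holds moved in both directions. Epithelial markers rose, with 10 of 13 tested markers called higher and none lower, and their summed FPKM was 241 to 271 in CAS and 1090 to 1859 in CAS-E2. Prom1 (4.27 ± 0.36, adjusted p = 3.1e-05), the transcription factor Elf3 (3.89 ± 0.44, adjusted p = 0.00013) and the keratins Krt19 (3.25 ± 0.42) and Krt8 (2.82 ± 0.41) led them. Epcam, an adhesion protein of all epithelia, rose less, from 57.1, 44.1 and 52.9 to 94.4, 120 and 162 FPKM (1.25 ± 0.34, adjusted p = 0.012). Cldn3 was listed at 0 in all 6 libraries. Krt18 was called (1.36 ± 0.39) but not without CAS-E2 3. Macrophage markers rose in 9 of 12 cases, with a summed FPKM of 150 to 166 in CAS and 404 to 581 in CAS-E2. Among them were Cd68 (2.17 ± 0.31, adjusted p = 0.00049), Ctss, the lysosomal cathepsin S (1.97 ± 0.24), Aif1 (1.85 ± 0.25) and the complement gene C1qb (1.84 ± 0.20). Csf1r, the receptor that defines the lineage, had 6.54, 5.98 and 6.30 FPKM in CAS and 13.9, 9.99 and 5.90 in CAS-E2, a difference of 0.52 ± 0.26 that was not called. Emr1 was listed at 0 in all 6 libraries.

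Of the few neutrophil markers tested, S100a8 rose by 2.36 ± 0.33 and S100a9 by 3.52 ± 0.53. Kit, the stem cell factor receptor and the single mast cell marker tested, rose by 1.7 ± 0.30 (adjusted p = 0.0014). Cpa3, a protease of mast cell granules, was below 1 FPKM in all 6 libraries. Stromal markers fell, 5 of 13 being called lower and none higher (summed FPKM 973 to 1211 in CAS and 468 to 1029 in CAS-E2). Thy1 had 22, 15.9 and 16.5 FPKM against 6.60, 4.38 and 4.58 (-1.63 ± 0.34, adjusted p = 0.0035), and Hand2, a stromal regulator of epithelial growth, fell by 1.13 ± 0.18 (adjusted p = 0.00094). The stromal count was 2 without CAS 1, without CAS 2 or without CAS-E2 3. Endothelial markers fell in 5 of 11 cases (summed FPKM 134 to 144 in CAS and 61.1 to 79.8 in CAS-E2). Among them were Cdh5 (-1.45 ± 0.32) and Tie1 (-1.44 ± 0.26), while Pecam1 differed by -0.41 ± 0.16 and was not called. Of 15 smooth muscle markers, Myocd (-1.27 ± 0.26) and Mylk (-1.11 ± 0.28) fell, Mylk not without CAS-E2 3. Actg2, the actin of visceral muscle, had 452, 357 and 442 FPKM in CAS and 1060, 1150 and 413 in CAS-E2 and was called without CAS-E2 3. In whole uteri, fewer cells of a type and less RNA of that gene per cell cannot be told apart, and the part of a changed cell makeup in the differences reported here was not tested.

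Of the 12 tested genes that mark the uterus by its Hox code and regulators, 5 fell and none rose, the count being 3 without any 1 of the CAS-E2 libraries. The falls were among the regulators, of which Hand2 is also a stromal marker. The tested Hox genes Hoxa10 (-0.82) and Hoxd10 (-0.7) were not called. Foxa2, the gland transcription factor, was at 8.55, 8.18 and 10.9 FPKM in CAS and at 2.12, 1.52 and 2.42 in CAS-E2 (-1.76 ± 0.15, adjusted p = 3.2e-05), with no overlap and little spread. The 3 tested gland markers did not move together, as Lif rose (2.89) and Ttr (-1.13) was not called. The skeletal muscle genes Tnnc2 (21.2, 18.9 and 10.2 FPKM against 0, 0.786 and 2.12) and Tnni2 (-2.65 ± 0.43) fell, and Acta1 (0.08 ± 0.32) was not called. Adipoq, the adipocyte hormone adiponectin, rose from 26.2, 13.4 and 14.5 FPKM to 108, 131 and 88.8 (2.58 ± 0.62, adjusted p = 0.0069). Plin1, the coat protein of fat droplets, had 3.43, 2.75 and 3.27 against 8.27, 3.03 and 0.549 and was not called. The urothelial gene Upk1b fell by 1.30 ± 0.25 and Upk1a was listed at 0 in all 3 CAS-E2 libraries. Among nerve and glia markers Pmp22 fell by 1.19 ± 0.35, though not without CAS 1 or CAS-E2 3. The mesothelial gene Wt1 fell by 1.07 ± 0.23, though not without CAS-E2 3, while the mesothelial markers Msln (0.47) and Gpm6a (-0.08) were not called. Of 2 keratins of stratified epithelium Krt15 rose by 1.59 ± 0.31, and Krt13 was called without SPI-E2 1 or SPI-E2 3. Eosinophil, liver, red cell, ovarian and T and NK cell markers held no called gene, and no B cell marker passed the filter.

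**Figure D3:**
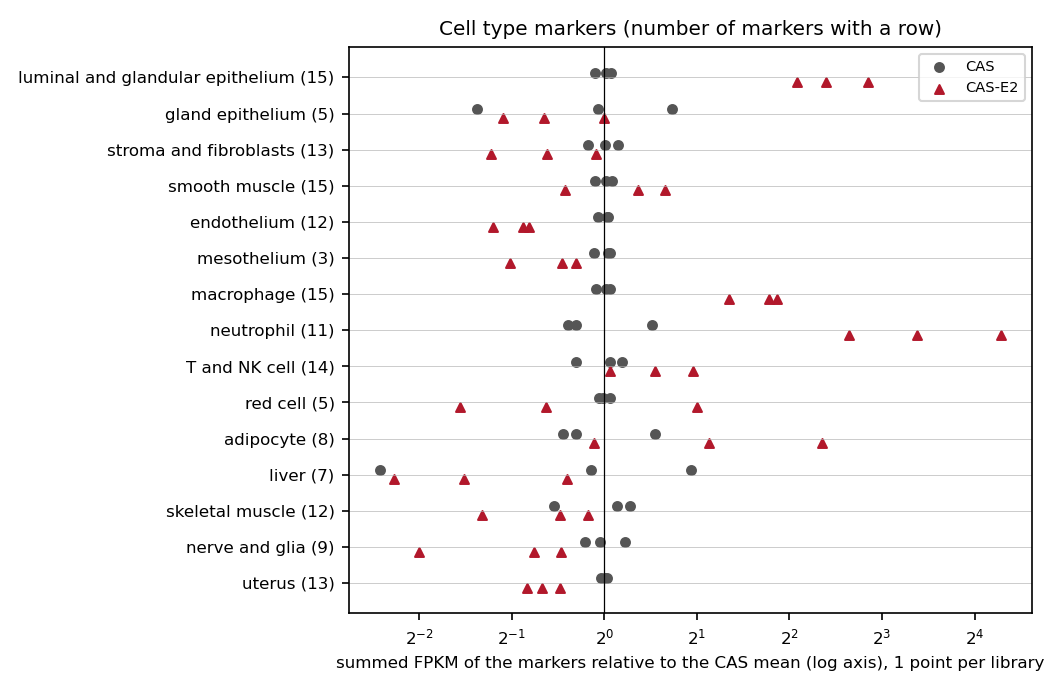
Summed FPKM of each list of cell type markers in each library divided by the CAS mean of that list, on a log2 axis, with circles for CAS and triangles for CAS-E2 and the number of markers with a row in parentheses. The triangles of the epithelial and macrophage lists lie above all circles, those of the endothelial list lie below them, and lists such as red cell and liver overlap.

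Many antimicrobial, mucin, keratin and S100 genes rose. Of 33 antimicrobial genes with a row only 14 passed the filter, and 13 of these were called higher (median difference 2.27). Of 22 mucins and surface glycoproteins with a row 14 passed it, 9 of them higher and 2 lower (median 2.04). Of 15 keratins with a row 5 passed it, 4 of them higher, and of 12 tested S100 calcium-binding genes 7 were higher (median 1.7). Slpi, a secreted inhibitor of leukocyte proteases, rose from 5.26, 7.93 and 1.76 FPKM to 82.1, 129 and 435 (4.97 ± 0.68, adjusted p = 0.00037). Pigr, which carries IgA across the epithelium, rose from 21.5, 17.7 and 28.9 to 78.1, 83.9 and 98.2 (1.91 ± 0.36, adjusted p = 0.0018). Reg3g, a lectin that kills Gram-positive bacteria, was listed at 0 in all 3 CAS libraries and had 15.9, 29.3 and 38.2 FPKM in CAS-E2. It passed the filter through the CAS-E2 libraries alone. B3gnt3, a glycosyltransferase of mucin-type sugars, rose by 3.79 ± 0.48. The membrane mucin Muc1 had 9.12, 7.97 and 11.5 against 12.3, 18.2 and 30.5 FPKM (0.94 ± 0.39, adjusted p = 0.071) and was called without CAS-E2 1. Tff3 (2.94, 1.77 and 2.75 FPKM against 0, 0 and 1.29) lost its call of lower without CAS 1, CAS 3, CAS-E2 1 or CAS-E2 2. Of the antimicrobial list, Lyz2 is also among the macrophage markers used here and S100a8 and S100a9 among the neutrophil markers, and Cyba, Cybb, Tlr2 and Tlr4 are known from myeloid cells too. The epithelial and macrophage markers, given above, moved with these genes, and their part in it was not tested. Krt8, Krt18 and Krt19 count both as keratins and as epithelial markers. The neutrophil markers called higher are S100a8 and S100a9 themselves, so they give no separate view.

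**Figure D4:**
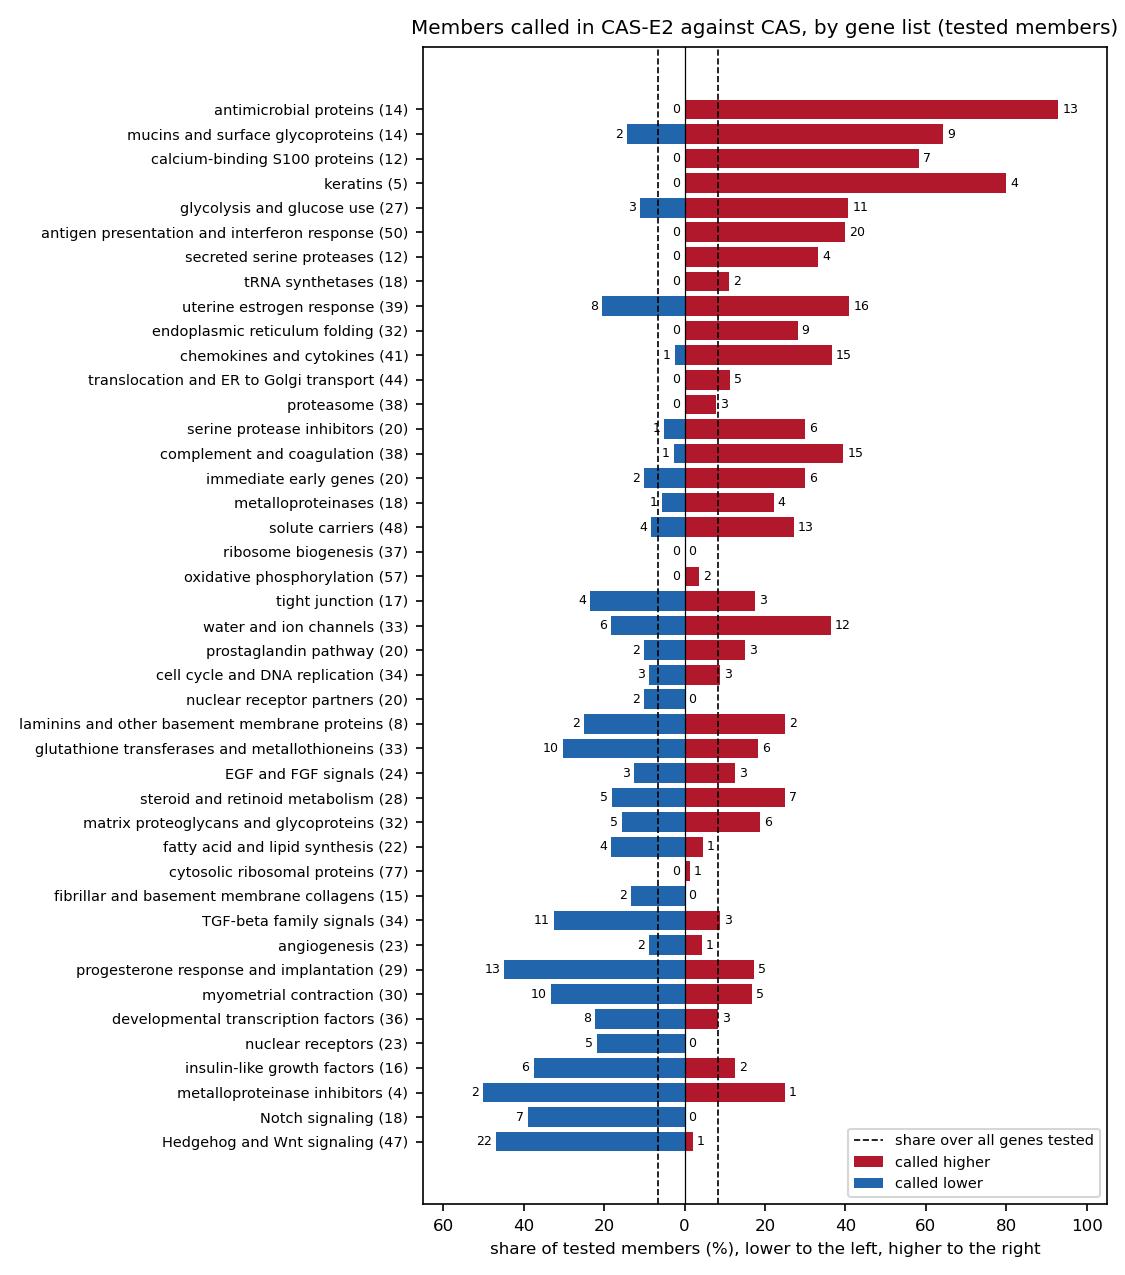
Share of the tested members of each gene list called higher (red, to the right) or lower (blue, to the left) in CAS-E2 against CAS, with the counts beside the bars and the tested members in parentheses, ordered by the median difference. Dashed lines mark the shares over all genes tested, 8.21% higher and 6.53% lower, and antimicrobial genes (13 of 14 higher) and Hedgehog and Wnt genes (22 of 47 lower) stand at the ends. Shares are of genes that passed the filter, which for the antimicrobial list are 14 of 33 with a row.

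Transport genes changed in both directions. Of 33 water and ion channel genes 12 rose and 6 fell, and of 48 solute carriers 13 rose and 4 fell. The share of carriers that fell (8.33%) is near the 6.53% of all genes tested. The chloride channel Cftr, which moves fluid into the lumen, was at 0.358, 0.150 and 0.233 FPKM in CAS and at 11.8, 14.6 and 14.4 in CAS-E2 (3.55 ± 0.31, adjusted p = 3.7e-05). Clca4 (5.10 ± 0.58) and Clca1 (4.33 ± 0.61), chloride channel regulators, and the aquaporins Aqp8 (2.84 ± 0.52) and Aqp3 (2.00 ± 0.29) rose as well. Other water channels fell, Aqp5 having 28.4, 31.7 and 26.8 FPKM in CAS and 1.13, 2.71 and 6.68 in CAS-E2. The pump regulator Fxyd4 (-2.26 ± 0.36) and Aqp1 (-1.14 ± 0.31) fell too, Aqp1 not without CAS-E2 3. Among carriers, Slc6a14, which takes up neutral and cationic amino acids, rose from 0.629, 0.580 and 0.245 to 14.7, 18.6 and 14.5 FPKM (3.51 ± 0.29, adjusted p = 2.7e-05). The phosphate carrier Slc34a2 rose by 2.64 ± 0.32 and the scaffold Slc9a3r1 by 2.85 ± 0.33. The glutamate carrier Slc1a3 fell from 6.85, 5.69 and 3.88 to 1.28, 0.989 and 0.565 (-1.72 ± 0.30, adjusted p = 0.0014). The count of carriers called lower was 2 without CAS-E2 3.

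Receptors of steroid hormones fell or were not called. Esr1, the main estrogen receptor of the uterus, had 39.2, 39.9 and 40.7 FPKM in CAS and 19.3, 21.6 and 12.7 in CAS-E2 (-1.15 ± 0.25, adjusted p = 0.0041), with no overlap, and lost its call without CAS-E2 3. Pgr, the progesterone receptor, had 21, 23.2 and 23.4 against 37.5, 34.5 and 14.2 FPKM, so that CAS-E2 1 and CAS-E2 2 lay above the CAS libraries and CAS-E2 3 below them (0.23 ± 0.29, adjusted p = 0.54). The glucocorticoid receptor Nr3c1 (-0.96 ± 0.25, adjusted p = 0.010) missed the fold cutoff, though it was called without CAS 3 or CAS-E2 1. Esr2 was at or below 0.201 FPKM in all 6 libraries. Gper, the membrane estrogen receptor, was at 1.5, 2.17 and 0.585 in CAS and 0.256, 0.712 and 0.274 in CAS-E2, and neither gene passed the filter. Of 23 nuclear receptors 5 fell, Thra of thyroid hormone most (42.4, 38.8 and 38.4 against 15.8, 14.2 and 8.07 FPKM, -1.63 ± 0.27, adjusted p = 0.0010). The count was 8, 3 and 1 without CAS-E2 1, CAS-E2 2 and CAS-E2 3. Of 20 coregulators and partners, Gata2 (-1.84 ± 0.17, adjusted p = 5e-05) and Foxa2 fell, a share (10%) near the 6.53% of all genes tested. The median difference of these 20 genes was -0.05. The coactivators Ncoa1 (-0.68 ± 0.18) and Ncoa2 (-0.51 ± 0.14) missed the fold cutoff.

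Among genes known as estrogen-responsive in the uterus, 16 of 39 rose and 8 fell. This list was written with results of these data known, so its direction is not independent evidence. Besides Kap, S100g, Lcn2, Oxt, Clu and Aqp5, it holds Igfbp3, a binding protein of insulin-like growth factors, at 71.8, 72.8 and 42.7 FPKM in CAS and 8.46, 9.50 and 9.91 in CAS-E2 (-2.59 ± 0.52, adjusted p = 0.0029). Of 16 tested genes of the IGF system 2 rose and 6 fell (12.5% and 37.5%, against 8.21% and 6.53% of all genes tested). Igf1, the growth factor made by uterine stroma, rose from 15.7, 11.3 and 10.9 to 61.6, 56.4 and 29.6 FPKM (1.83 ± 0.30, adjusted p = 0.00093). Igfbp2, another of the binding proteins, rose from 1.85, 2.05 and 3.32 to 63, 94.0 and 137 (4.82 ± 0.45, adjusted p = 5.3e-05). The receptor Igf1r (10.7, 11.6 and 11.6 against 3.71, 3.42 and 3.22, -1.47 ± 0.21), Igf2 (-1.28 ± 0.24), the adaptor Irs2 (-1.58 ± 0.30) and Igfbp5 (171, 179 and 173 against 84.1, 71.7 and 44.6, -1.42 ± 0.33) fell.

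Genes of local growth signals moved in both directions. Of 24 EGF and FGF signal genes 3 rose and 3 fell (12.5% each, against 8.21% and 6.53% of all genes tested). The EGF receptor ligands Btc (0.904, 0.681 and 1.06 against 10.2, 9.19 and 5.94 FPKM, 2.30 ± 0.38) and Hbegf (1.51 ± 0.30) and the ERK phosphatase Dusp6 (1.43 ± 0.25) rose. The inhibitor Spry1 (-1.81 ± 0.26), the ligand Pdgfc (-1.47 ± 0.26) and the receptor Fgfr2 (-1.11 ± 0.20) fell, Fgfr2 not without CAS-E2 3. In the TGF-beta family 11 of 34 fell (32.4%) and 3 rose (8.82%, near the 8.21% of all genes tested). The BMP ligands Bmp7 (13.8, 10.7 and 10.5 against 1.60, 1.90 and 1.45 FPKM, -2.25 ± 0.34, adjusted p = 0.00061) and Gdf10 (-2.24 ± 0.46) fell. The BMP target genes fell with them, namely Id2 (82.1, 63.6 and 50.1 against 10.6, 13.2 and 15.3, -2.22 ± 0.42) and Id3 (-2.09 ± 0.34). Inhbb, an activin and inhibin subunit, rose from 4.37, 4.71 and 3.65 to 28.2, 36.3 and 30.8 FPKM (2.64 ± 0.26, adjusted p = 5.9e-05), and Lefty2, which antagonizes Nodal, by 1.55 ± 0.34. Chrd, a BMP antagonist, was called higher but not without CAS 1, CAS 3, CAS-E2 1 or CAS-E2 2. Of 18 Notch genes 7 fell and none rose, with 4 without CAS-E2 3. Among them were the receptors Notch3 (10.8, 13.4 and 12.3 against 5.26, 2.86 and 1.91 FPKM, -1.67 ± 0.29) and Notch1 (-1.19 ± 0.21) and the targets Heyl (-1.49 ± 0.29) and Hey2 (-1.15 ± 0.22). Of 23 angiogenesis genes, with a share called lower (8.7%) near that over all genes tested (6.53%), Tie1 and Angptl2 (-1.20 ± 0.30) fell and Adm, the vasodilator adrenomedullin, rose by 1.19 ± 0.37. Angptl2 lost its call without CAS-E2 3, and Adm without CAS 1, CAS 3, CAS-E2 1 or CAS-E2 2. The number of falls was 4, 6, 5 and 1 without CAS 3, CAS-E2 1, CAS-E2 2 and CAS-E2 3. Vegfa, the main endothelial growth factor, had 23.8, 20.2 and 20.5 FPKM against 13.6, 14.1 and 13.6 and missed the fold cutoff (-0.60 ± 0.15). Stromal and endothelial markers fell as well (above), and their part in these falls was not tested.

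The Hedgehog and Wnt list had the largest share of falls among lists with over 20 tested members: 22 of 47 fell and 1 rose, with a median difference of -0.94. Ihh, the ligand that the uterine epithelium sends to the stroma, had 2.47, 2.20 and 4.49 FPKM in CAS and was listed at 0, 0 and 0.570 in CAS-E2 (-1.76 ± 0.40, adjusted p = 0.0051). The stromal receptor Ptch1 had 7.80, 8.98 and 9.67 against 1.88, 1.41 and 1.22 (-1.97 ± 0.26, adjusted p = 0.00029), and Gli1 had 10.7, 10.5 and 10.4 against 0.167, 0.365 and 1.03. Ligand, receptor and target thus stood lower in all 3 CAS-E2 libraries, as did 31.5% of all genes tested. Of the Wnt genes, Sfrp2 had 43.7, 47.7 and 36.8 FPKM against 5.58, 4.19 and 3.99. The R-spondin receptor Lgr5 had 16.2, 15.1 and 13.2 against 0.799, 1.61 and 1.36 (-2.82 ± 0.37), and the Wnt inhibitor Wif1 fell by 2.11 ± 0.33. Wnt7b, an epithelial Wnt ligand, was the member that rose, from 1.72, 1.43 and 1.01 to 5.81, 8.82 and 6.60 FPKM (1.75 ± 0.25, adjusted p = 0.00043).

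Ptch1 is a direct target of the Gli proteins, and its promoter is shown because the gene fell with Ihh and Gli1. The 250 bases before its start (RefSeq, GRCr8, chr17:1555321-1555570, plus strand) hold the letters TGGGTGGTC on which Gli proteins bind, in capitals, 172 bases before the start.
Ptch1: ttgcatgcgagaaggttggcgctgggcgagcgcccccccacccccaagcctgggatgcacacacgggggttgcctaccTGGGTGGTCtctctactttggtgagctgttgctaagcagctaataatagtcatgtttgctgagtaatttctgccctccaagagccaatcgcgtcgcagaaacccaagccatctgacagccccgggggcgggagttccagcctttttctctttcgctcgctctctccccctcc
These letters, searched on both strands, were found in 104 of 27457 promoter windows of 300 bases (0.379%), in 1 of 495 matched genes called lower, Ptch1 itself, and in 0 of 630 called higher.

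Of 29 genes tied to progesterone action and implantation 13 fell and 5 rose, and of 36 developmental transcription factors 8 fell and 3 rose. The share of these factors that rose (8.33%) is near the 8.21% of all genes tested. Lif, the cytokine that makes the uterus receptive, rose from 0.331, 0.748 and 1.16 to 10.8, 12.1 and 12.3 FPKM (2.89 ± 0.19, adjusted p = 7.6e-06). Hsd11b2, which inactivates glucocorticoids, had 14, 11.8 and 12.6 against 169, 160 and 55.2 (3.07 ± 0.54, adjusted p = 0.0014). The kinase Sgk1 rose by 1.84 ± 0.14 (adjusted p = 2.3e-05). Gata2, which acts with the progesterone receptor, had 31.6, 33.2 and 37.6 against 8.24, 8.66 and 9.60 FPKM. Lrp2, an endocytic receptor, had 7.11, 6.21 and 5.56 against 0.0542, 0.115 and 0.319 (-2.65 ± 0.30, adjusted p = 0.00014). Calca, the calcitonin gene, at 1.32, 7.78 and 2.56 in CAS, was listed at 0 in all 3 CAS-E2 libraries. The transcription factors Meis2 (45.8, 43.2 and 39.1 against 10, 9.52 and 8.47, -2.08 ± 0.33), Klf15 (-1.52 ± 0.25) and Snai1 (-1.33 ± 0.27) fell, and the epithelial factors Spdef (1.77 ± 0.37) and Ehf (1.37 ± 0.28) rose with Elf3.

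Matrix genes were mixed. Of 18 metalloproteinases 4 rose (22.2%) and 1 fell (5.56%, near the 6.53% of all genes tested). Next to Mmp7, Adamts4 (1.58 ± 0.27), Adam28 (1.35 ± 0.27) and Mmp12 rose. Mmp12, at 17.2, 1.45 and 5.29 FPKM in CAS-E2, lost its call without CAS 2, CAS 3, CAS-E2 1 or CAS-E2 3. Mmp15, a membrane-bound member, fell from 10.7, 9.45 and 10.8 to 2.06, 1.42 and 2.24 FPKM (-1.97 ± 0.28). A second gene of the list was called lower without CAS-E2 1, SPI 1, SPI 3 or SPI-E2 1. Mmp2, a stromal gelatinase, had 45, 46.3 and 40.9 against 56.9, 51.2 and 48.1 and was not called. The 250 bases before the start of Mmp7 (RefSeq, GRCr8, chr8:13132793-13133042, plus strand) are shown because this gene leads the rises. They hold the letters TGANTCA searched for AP-1, here TGAGTCA in capitals, 80 bases before the start.
Mmp7: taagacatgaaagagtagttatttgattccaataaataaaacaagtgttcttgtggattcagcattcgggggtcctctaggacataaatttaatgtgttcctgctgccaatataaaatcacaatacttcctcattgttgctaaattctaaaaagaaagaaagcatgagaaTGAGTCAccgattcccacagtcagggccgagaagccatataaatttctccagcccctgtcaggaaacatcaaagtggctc
Of the tissue inhibitors, Timp1 rose from 16, 12.3 and 14.1 to 64, 69.6 and 99.0 FPKM (2.36 ± 0.32, adjusted p = 0.00038). Timp3 fell from 58.5, 71.3 and 53.8 to 22.7, 19.8 and 11.2 (-1.76 ± 0.39, adjusted p = 0.0045), and Timp2 (-0.55 ± 0.32) was not called. Lamb3, a laminin chain of epithelial anchoring, rose by 1.97 ± 0.36, while Lamc3 and Nid2 (-1.52 ± 0.35) fell. Of 17 tight junction genes 3 rose and 4 fell, with Cldn7, a claudin of simple epithelia, rising from 15.5, 15.6 and 14.6 to 47.1, 64.1 and 83.9 FPKM (1.99 ± 0.43, adjusted p = 0.0041) and Jam3 falling by 1.40 ± 0.25. The abundant fibrillar collagens were not called, Col1a1 having 169, 145 and 166 against 217, 114 and 74 FPKM and Col1a2 differing by -0.11 ± 0.36. Of 15 collagens Col17a1 (-1.33 ± 0.19) and Col27a1 (-1.03 ± 0.24) fell, Col27a1 not without CAS 3 or CAS-E2 3. Of 32 proteoglycans and matrix glycoproteins 6 rose and 5 fell, with 11 higher and 3 lower without CAS-E2 3 and 3 higher without CAS 3, CAS-E2 1 or CAS-E2 2. Ecm1 rose (6.62, 7.39 and 7.28 against 23.2, 38.7 and 53.7, 2.21 ± 0.33) and Efemp1 fell (34.8, 26 and 26.1 against 9.54, 6.47 and 6.11, -1.85 ± 0.39). Of 20 serine protease inhibitors 6 rose and 1 fell. Serpinb5 rose by 3.12 ± 0.39 and Wfdc1 fell from 21.7, 22.5 and 20.3 to 3.10, 6.49 and 11.9 FPKM (-1.61 ± 0.32). Of 12 secreted serine proteases Tmprss4 (3.14 ± 0.37), Prss12 (3.07 ± 0.39), Prss22 (1.62 ± 0.32) and St14 (1.14 ± 0.32) rose, St14 not without CAS-E2 3.

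Genes of glucose use rose, 11 of 27 being called higher and 3 lower (median 0.80). Slc16a3, the lactate exporter, went from 1.75, 0.823 and 0.937 to 17.8, 15.8 and 27.6 FPKM (3.29 ± 0.44, adjusted p = 0.00033). Ldha, which makes lactate, went from 60.3, 54.2 and 59.2 to 198, 244 and 320 (2.09 ± 0.33), and Gapdh of glycolysis went from 94.2, 73.1 and 72.5 to 211, 205 and 292 (1.54 ± 0.27). The glucose transporter Slc2a1 (1.42 ± 0.33) and the hexokinase Hk2 (1.52 ± 0.29) rose too. Ldhb (-1.13 ± 0.23), Pdk4 and Aldoc fell, Pdk4 not without CAS-E2 3 and Aldoc not without CAS 2, CAS-E2 1 or CAS-E2 2. In contrast, 1 of 77 cytosolic ribosomal protein genes, 0 of 37 ribosome biogenesis genes and 2 of 57 genes of oxidative phosphorylation were called higher and none lower, with medians of -0.23, 0.20 and 0.19. The ribosomal gene, Rpl38, lost its call without CAS 2, CAS 3, CAS-E2 2, CAS-E2 3, SPI 1, SPI 2 or SPI 3, and 6 and 5 genes of oxidative phosphorylation were called without CAS 1 and without CAS-E2 1. By limma, 12 of the 37 ribosome biogenesis genes had an unadjusted p under 0.05, and 8 of them an adjusted p under 0.05 at any fold, as had 39.8% of all genes tested. Of 22 lipid synthesis genes 1 rose and 4 fell. Thrsp (71, 38 and 50.7 against 9.21, 14.2 and 4.72, -2.45 ± 0.75) and Fads1 (-1.40 ± 0.31) led the falls. Their number was 2 without CAS 1 or CAS 3 and 1 without CAS-E2 3. Thrsp was not called without CAS 1, CAS 3 or CAS-E2 3.

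Of 18 tRNA synthetases Wars (1.30 ± 0.25) and Tars (1.24 ± 0.17) rose, a share (11.1%) near that over all genes tested (8.21%). Of 32 folding genes of the endoplasmic reticulum 9 rose and none fell (28.1% higher, median 0.49). Of 44 translocation and transport genes 5 rose and none fell (median 0.44), a share (11.4%) near the 8.21% of all genes tested. Hspa5, the main chaperone of the compartment, had 43.7, 44.9 and 34.7 FPKM in CAS and 91.6, 91.1 and 115 in CAS-E2 (1.25 ± 0.18, adjusted p = 0.00058). The disulfide isomerase Pdia3 had 65.8, 61 and 52.7 against 119, 161 and 205 (1.39 ± 0.25, adjusted p = 0.0014). Calr, which folds glycoproteins, rose by 1.14 ± 0.27 but not without CAS-E2 3, and Hsp90b1 (0.94 ± 0.17, adjusted p = 0.0018) missed the fold cutoff, except without CAS-E2 1. The translocon subunits Sec61g (1.51 ± 0.34) and Sec61b (1.25 ± 0.27) and the receptor Kdelr3 (1.16 ± 0.15) rose. Of 38 proteasome genes 3 rose, the interferon-inducible subunits Psmb8, Psmb10 and Psmb9. That share (7.89%) is near the 8.21% of all genes tested. Psmb8 had 14.9, 15.8 and 12.5 against 36.4, 31.2 and 80.6 FPKM (1.59 ± 0.39) and Psmb10 rose by 1.32 ± 0.30. Psmb9 lost its call without CAS 1, CAS 2, CAS 3, CAS-E2 2 or CAS-E2 3.

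Chaperone genes of this compartment are known for a promoter element, the endoplasmic reticulum stress response element, and 3 promoters of genes called higher are shown for it. They are the 250 bases before the start of Hspa5 (RefSeq, GRCr8, chr3:38452766-38453015), Calr (chr19:40213117-40213366) and Dnajc3 (chr15:102432417-102432666), all on the plus strand. Capitals mark the element, CCAAT and CCACG with any 9 bases between them in either direction, which lies 43, 232 and 133 bases before the start.
Hspa5: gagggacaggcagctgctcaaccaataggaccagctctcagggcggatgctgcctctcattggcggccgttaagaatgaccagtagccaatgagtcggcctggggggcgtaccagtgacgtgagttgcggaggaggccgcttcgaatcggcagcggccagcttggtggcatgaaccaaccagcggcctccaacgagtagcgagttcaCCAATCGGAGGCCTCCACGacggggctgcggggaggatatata
Calr: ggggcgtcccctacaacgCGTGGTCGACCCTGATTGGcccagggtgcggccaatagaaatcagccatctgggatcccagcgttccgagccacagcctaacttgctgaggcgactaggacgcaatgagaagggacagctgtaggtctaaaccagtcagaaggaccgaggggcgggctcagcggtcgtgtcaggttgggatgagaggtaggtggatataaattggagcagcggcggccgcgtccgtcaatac
Dnajc3: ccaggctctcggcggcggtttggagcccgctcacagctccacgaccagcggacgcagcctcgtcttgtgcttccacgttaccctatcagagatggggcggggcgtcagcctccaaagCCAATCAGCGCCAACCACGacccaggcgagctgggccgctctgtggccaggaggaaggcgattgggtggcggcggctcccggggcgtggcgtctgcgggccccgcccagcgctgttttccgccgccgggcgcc
Dnajc3, a co-chaperone chosen for this element after its value was seen, rose by 1.11 ± 0.28 (adjusted p = 0.0094), though not without CAS 3 or CAS-E2 3. The element is rare, being in 21 of 27457 windows (0.0765%), 5 of 630 matched genes called higher (0.794%), 0 of 495 called lower and 10 of 6911 not called (0.145%). The 5 are Hspa5, Calr, Dnajc3, Derl3 (1.39 ± 0.33) and Zfand2a (1.08 ± 0.16, not called without CAS 1), the last 2 chosen after their values were seen because they hold it, and the genes not called include Hsp90b1 and Xbp1 (0.24 ± 0.15).

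Other motifs were searched in the same windows, 250 bases before and 50 after the start, on both strands, for the 8036 of 9875 tested genes (81.4%) that matched a window by accession (7630) or symbol (406). For AP-1 the letters TGANTCA were searched with any base at N, which is looser than the AP-1 site, so some matches are not AP-1 sites. These letters were in 69 of 630 genes called higher (11%), 17 of 495 called lower (3.43%), 316 of 6911 not called (4.57%) and 7.33% of all windows. The letters TATAAA were in 13.3% of genes called higher, 9.29% of those called lower and 6.03% of those not called, against 14.3% of all windows. The letters GAAA and again GAAA with any 2 bases between them, of the interferon-stimulated response element, were in 4.92%, 2.02% and 2.84%, against 3.77% of all windows. The full estrogen response element, GGTCA and TGACC with any 3 bases between them, was in 7 windows (0.0255%), in none of the genes called and in 2 not called. Matches of the motifs searched did not overlap each other in any window. These are letters in short windows and carry no information on binding here.

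Detoxification genes moved in both directions. Of 33 glutathione transferase, peroxidase and metallothionein genes 10 fell and 6 rose. A run of 7 neighbouring tested genes, all called lower, lies at chr2:203456122-203580821 (rn4) and holds Gstm5, Gstm6l, Gstm7, Gstm6, Gstm3, Gstm2 and Gstm1, glutathione transferases of the mu class. Gstm1 had 82.8, 90.8 and 89.4 FPKM in CAS and 10.4, 9.75 and 13 in CAS-E2 (-2.89 ± 0.39, adjusted p = 0.00037). Gstm5 had 55.7, 57.8 and 48.3 against 8.10, 9.44 and 7.75 (-2.54 ± 0.27, adjusted p = 9.7e-05), and Gstm7 had 33.3, 29.4 and 40.9 against 0.752, 1.79 and 2.49. These genes are close copies of each other, so the share of reads given to each is uncertain. Transferases of other classes were called in both directions, with Gsto1 (1.32 ± 0.23) and the microsomal Mgst3 (1.54 ± 0.33) higher and Gsta3 (-1.17 ± 0.33) lower, Gsta3 not without CAS 1. Gpx2, an epithelial glutathione peroxidase, rose from 12.3, 8.91 and 9.94 to 65.3, 82.0 and 228 FPKM (3.26 ± 0.55, adjusted p = 0.0011). Txnrd1, thioredoxin reductase, rose from 9.40, 8.25 and 7.06 to 26.5, 29.4 and 31.7 (1.71 ± 0.26, adjusted p = 0.00064).

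The next 2 runs of neighbours called in 1 direction, by number of genes, also hold members of gene families. At chr2:182885070-186654321 the 6 genes S100a4, S100a6, S100a8, S100a9, S100a11 and S100a10 were higher. S100a10 had 94.5, 64.8 and 67.1 FPKM against 232, 323 and 328 (1.95 ± 0.26) and S100a6 291, 174 and 187 against 655, 946 and 549 (1.72 ± 0.33). At chr10:69103244-70322586 the channel gene Accn1 and the chemokines Ccl2, Ccl7, Ccl11 and Ccl12 were higher, Ccl2 not without CAS 3, CAS-E2 1 or CAS-E2 2. A run of 4 genes called lower lies at chr10:49239761-50821280 (Tekt3, Pmp22, Hs3st3b1 and Hs3st3a1). Runs of 4 called higher lie at chr11:36828273-37505705 (Pcp4, Bace2, Mx1 and Fam3b) and chr6:101523558-101722655 (Plek2, Tmem229b, Plekhh1 and Pigh). In these, Tekt3 lost its call without CAS 1, CAS 2, CAS 3, CAS-E2 1 or CAS-E2 3, and Pmp22 without CAS 1 or CAS-E2 3. Pcp4 lost it without CAS 2, CAS 3 or CAS-E2 2, and Pigh without CAS 2, CAS 3 or CAS-E2 3. Fam3b, a secreted cytokine-like protein, rose from 1.07, 0.946 and 1.05 to 41.4, 61.2 and 86.0 FPKM (4.92 ± 0.50), and Bace2, a protease, from 5.71, 5.74 and 6.92 to 40, 44.6 and 47.5 (2.66 ± 0.33).

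Immune genes rose, along with the macrophage markers given above, whose part in it was not tested. Of 38 complement and coagulation genes 15 rose and Clu fell. Cfb, a protease of the alternative pathway, went from 14.8, 14.7 and 14.3 to 190, 251 and 402 FPKM (4.11 ± 0.49, adjusted p = 0.00017). Its regulators Cd55 (8.31, 4.03 and 2.79 against 76.9, 85.0 and 75, 3.83 ± 0.31) and Cfi (3.03 ± 0.63) rose with it. Of 41 chemokine and cytokine genes 15 rose and Il33 fell, Il33 not without CAS 1, CAS 2 or CAS-E2 3, while 2 genes were called lower without CAS 3, SPI 1 or SPI-E2 3 and 3 without CAS-E2 2. The eosinophil attractant Ccl11 had 2.08, 1.18 and 0.609 FPKM in CAS and 116, 137 and 40.5 in CAS-E2 (5.31 ± 0.78, adjusted p = 0.00058). The neutrophil attractant Cxcl5 had 0, 0.534 and 0.830 against 23.9, 16.7 and 45.8 (4.28 ± 0.52). Il1rn, which blocks the interleukin-1 receptor, had 1.43, 0.474 and 0.184 against 20.5, 9.55 and 23.6 (3.45 ± 0.40). The eosinophil granule genes Epx and Prg2 were below 0.2 FPKM in all 6 libraries. Of 50 antigen presentation and interferon genes 20 rose and none fell (median 0.80). B2m, the light chain of class I molecules, had 130, 104 and 84.9 against 333, 408 and 531 FPKM (1.98 ± 0.31), and Isg15 rose by 2.21 ± 0.37. The class I gene RT1-A2 (1.14 ± 0.35) lost its call without CAS 2, CAS 3 or CAS-E2 3. Of 20 immediate early genes 6 rose and 2 fell. Fos rose from 5.04, 3.22 and 3.29 to 25.6, 27.9 and 38.1 FPKM (2.70 ± 0.32, adjusted p = 0.00017) and Klf4 by 2.19 ± 0.35. Klf2 (-1.17 ± 0.28) and Fosl1 (-1.08 ± 0.24) fell, though neither did without CAS-E2 3, and Jun (-0.21 ± 0.15) was not called.

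Among genes of myometrial contraction 10 of 30 fell and 5 rose, 3 without CAS-E2 2. The rises include coupling and agonist genes. Gja1, the connexin of labour, was at 8.22, 6.55 and 5.59 FPKM in CAS and 33.4, 40.8 and 44.3 in CAS-E2 (2.38 ± 0.23, adjusted p = 5.9e-05). Oxt was at 2.85, 0.767 and 1.43 FPKM against 93.2, 93.0 and 189, and its receptor Oxtr at 3.90, 1.47 and 2.12 against 25.4, 23.6 and 5.35 (2.26 ± 0.54, adjusted p = 0.0067). Both genes of the oxytocin pair thus stood higher in all 3 CAS-E2 libraries, as did 24.1% of all genes tested. The falls include Pln, which restrains the calcium pump (28.7, 22.9 and 13.8 against 2.80, 4.45 and 4.2, -2.20 ± 0.42). The calcium channel gene Cacna1d had 5.60, 6.22 and 5.66 against 0.407, 0.394 and 0.474 (-2.26 ± 0.47). They also include the guanylate cyclase subunit Gucy1a3 (-1.88 ± 0.34) and Ppp1r14a, an inhibitor of myosin phosphatase (-1.5 ± 0.23). Of 20 prostaglandin genes 3 rose and 2 fell (15% and 10%, against 8.21% and 6.53% of all genes tested). Ptger3, a receptor of prostaglandin E2, fell from 18.3, 19.2 and 24.1 to 2.75, 2.50 and 2.67 FPKM (-2.56 ± 0.54, adjusted p = 0.0037). The thromboxane receptor Tbxa2r fell by 1.05 ± 0.17, though not without CAS 1, and the transporter Slco2a1 rose by 1.74 ± 0.38.

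Of 34 cell cycle and replication genes 3 rose and 3 fell (8.82% each), with a median of 0.01. These shares are near the 8.21% higher and 6.53% lower of all genes tested. The kinase inhibitor Cdkn1a rose (3.87, 2.62 and 3.49 against 19.3, 20.2 and 30.4 FPKM, 2.47 ± 0.30, adjusted p = 0.0002). The related inhibitors Cdkn1c (12.1, 11.6 and 10.2 against 3.26, 1.91 and 2.94, -1.75 ± 0.32) and Cdkn1b (-1.34 ± 0.23) fell. The replication and mitosis genes Cdc6 (1.53 ± 0.27) and Ccnb1 (1.22 ± 0.24) rose from low levels. Mcm2 (4.26, 3.75 and 4.27 against 3.73, 3.08 and 3.76 FPKM) was not called. Of 28 steroid and retinoid genes 7 rose and 5 fell. Dhrs9, a retinol and steroid dehydrogenase, rose from 3.86, 3.12 and 2.20 to 43.3, 59.3 and 61.3 FPKM (3.78 ± 0.35, adjusted p = 5.3e-05). Of the retinoic acid-binding proteins Crabp2 rose (5.90, 5.87 and 5.53 against 24.2, 32.1 and 25.4, 2.05 ± 0.40) and Crabp1 fell (20.4, 25.3 and 16 against 4.73, 6.54 and 7.47, -1.57 ± 0.29). Ugt2b10, which conjugates steroids, fell from 6.07, 5.98 and 7.10 to 0.493, 0.157 and 0.739 (-2.35 ± 0.22, adjusted p = 5.4e-05). Rbp2, a retinol-binding protein, was listed at 0 in all 3 CAS libraries and had 5.74, 5.53 and 10.4 FPKM in CAS-E2.

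The pools of E2-treated uteri differed more among themselves than the untreated ones. The median SD of log2(FPKM + 1) over the tested genes was 0.15 in CAS and 0.22 in CAS-E2, and over the called genes 0.17 and 0.28. CAS-E2 3 was the highest CAS-E2 library in 460 of the 811 genes called higher and CAS-E2 2 in 250. CAS-E2 3 was the lowest in 356 of the 645 genes called lower, CAS-E2 2 in 135 and CAS-E2 1 in 154. By the study's read summary, CAS-E2 3 had the lowest alignment rate of the series and CAS 2 the next lowest. The part of alignment in the spread was not tested. The median difference from the CAS mean over the genes called higher was 1.39, 1.56 and 1.64 in CAS-E2 1, 2 and 3, and over the genes called lower -1.21, -1.26 and -1.5. Among called genes the widest spread in CAS-E2 besides Mir568, Lipf and Lcn2 was that of Wfdc10 (6.22, 42 and 90.5 FPKM) and Retnlg, a neutrophil and macrophage product (65.8, 41 and 6.56).

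The same contrast under soy, SPI-E2 against SPI, was read for the genes called in casein-fed uteri, as these libraries share no sample with CAS or CAS-E2, although all 4 groups shared 1 estimate of the spread. Of the 811 genes called higher, 800 had the same sign under soy and 583 were called there too, which is 71.9% of the casein list and 68.8% of the 847 genes (8.58% of those tested) called higher under soy. Of the 645 genes called lower, 626 had the same sign and 138 were called, 21.4% of the casein list and 75.4% of the 183 genes (1.85%) called lower under soy. No gene was called in opposite directions. The median difference of the genes called higher was 1.51 under casein and 1.45 under soy, and that of the genes called lower was -1.29 and -0.69, where the genes were picked on their casein values and not on their soy values. Over all genes tested the soy contrast minus the casein contrast had a median of 0.21. The count of shared falls depended on the scaling, the pseudocount and the cutoff, being 306 with upper-quartile scaling, 293 and 30 with pseudocounts of 0.1 and 5, 224 with array weights and 300 with the cutoff on the ratio of group means. It also rested on single soy libraries: it was 302 without SPI-E2 1, 82 without SPI 2, 47 without SPI-E2 2 and 50 without SPI-E2 3.

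**Figure D5:**
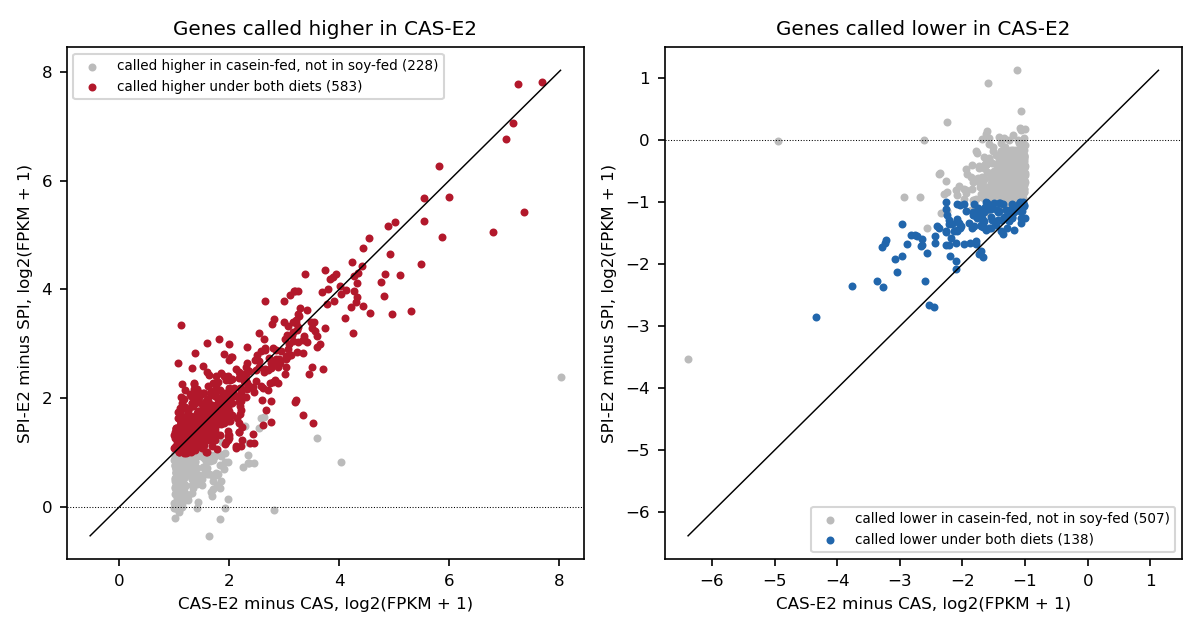
Difference under casein (x axis, CAS-E2 minus CAS) against difference under soy (y axis, SPI-E2 minus SPI), on the log2(FPKM + 1) scale, for the 811 genes called higher (left) and the 645 called lower (right) under casein, with the line of equal values. Coloured points, 583 higher and 138 lower, were also called under soy, and most points of the right panel lie above the line, that is closer to 0 under soy.

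The difference between the diets was itself tested as an interaction. By limma, 0 of 9875 genes (0.0%) passed an adjusted p of 0.05, the smallest being 0.0623, and 1512 had an unadjusted p under 0.05, of which 1349 had a higher value of the contrast under soy. The median interaction over all genes tested was 0.21, so values lay higher under soy for genes in general and not only for the 1512. Upper-quartile scaling factors were 0.8237 to 0.9135 in SPI and 0.9955 to 1.256 in SPI-E2. In CAS they were 0.9753 to 1.041 and in CAS-E2 1.019 to 1.122. The part of scaling in this shift was not tested. With array weights the test called 399 genes and without SPI-E2 1 it called 159, and without CAS 2 or CAS 3 it called 1. Foxa2 differed by -1.76 under casein and -0.20 under soy (adjusted p of the interaction 0.062), Gata2 by -1.84 and -0.40 (0.099), Ugt2b10 by -2.35 and -0.52 (0.10) and Igf1 by 1.83 and -0.23 (0.12). For Igf1 the SPI libraries had 37.6, 27.6 and 23.4 FPKM and the SPI-E2 libraries 17, 30.2 and 28.5, which overlap. These 4 genes were chosen after their values were seen. Of the largest rises, Mmp7 stood at 7.69 under casein and 7.81 under soy, Cuzd1 at 7.16 and 7.06 and Lpo at 7.03 and 6.77, while Kap stood at 7.36 and 5.43 and S100g at 6.81 and 5.05.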

How the data were processed

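Single 36-base reads of 12 uterine libraries, each a pool of 2 uteri, were aligned by the authors to the rat genome rn4 with TopHat2 2.0.9 and Bowtie2 2.1.0 after demultiplexing with CASAVA 1.7. The deposited values are FPKM of annotated RefSeq transcripts from Cufflinks 2.1.1, 1 file per library, which are normalized values and not counts, so a count test was not used. Here, transcript FPKM were summed per gene identifier, genes that reached an FPKM of 1 in 3 or more of the 6 CAS and CAS-E2 libraries were kept, and log2(FPKM + 1) was fitted with limma 3.58.1 (R 4.3.3) with a variance trend, in 1 linear model over the 4 groups (8 residual degrees of freedom). P-values are two-sided and adjusted by the Benjamini-Hochberg method over the 9875 genes. Errors after ± are standard errors of the difference, with n = 3 pools per group. The fit was first tested on simulated data. FPKM carry the sampling error of 6353210 to 9862180 mapped reads, a range implied by the files' FPKM and coverage, and the 36-base reads of near-identical genes could be split between them. An exact 0 can be a failed estimate, and genes at 0 throughout a group were given no fold.

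Genes named in the text were the 12 largest rises and 12 largest falls with groups apart, the 8 largest gains and 8 largest losses of FPKM, the 8 most abundant genes per group, the first 3 members and up to 4 largest called rises and 4 falls of each gene list, the steroid receptors, members of the longest runs of neighbours called in 1 direction, and the called genes with the widest and narrowest spread in CAS-E2. Some genes that this rule names are not reported here. Members and lists were chosen with earlier results of these data known. Promoter windows came from RefSeq (GRCr8), and rn4 positions from the deposited files. Alternatives were other pseudocounts, filters, scalings, fold cutoffs and sample sets, array weights, a replicate block, and each library left out. Figures were drawn with Python 3.11.15 and matplotlib 3.10.9.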

Additional observations from a re-analysis of the deposited data

How the results depend on the processing

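With a pseudocount of 5 the test called 406 genes higher and 167 lower, 334 of them shared with soy, and 2 genes by the interaction. With a pseudocount of 0.1 it called 1095 lower, with an FPKM filter of 5, which tests fewer genes, 384 lower, and with the 2-fold cutoff on the ratio of group means 1121 lower. Without a fold cutoff it called 1718 higher and 2216 lower, 1796 of them shared with soy. The interaction called 12 genes with upper-quartile scaling and 399 with array weights, for which the cause was not tested. Of the shared calls, those higher (583) were 304 with a pseudocount of 5 and 1252 without a fold cutoff. Those lower (138) were 293 and 30 with pseudocounts of 0.1 and 5, 306 with upper-quartile scaling, 224 with array weights, 300 with the ratio of group means and 544 without a fold cutoff. Leaving out 1 library at a time gave 732 to 852 genes higher, 542 to 759 lower, 542 to 968 shared with soy and 0 to 159 by the interaction. Equal replicate numbers of CAS and CAS-E2 did not deviate together (correlations of -0.017, -0.012 and -0.0018), and the replicate block called 812 higher, 649 lower, 730 shared and 0 by the interaction. Without the SPI-E2 libraries, an alternative chosen after seeing the data, 821 genes were higher and 650 lower. Median-ratio scaling gave 897 higher and 532 lower, and upper-quartile scaling 731 and 759.

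Of 402 genes followed through the alternatives, those of the naming rule and some chosen after their values were seen, 309 were called, of which 190 were called under every alternative run and 52 lost the call without 1 library, 38 of them without CAS-E2 3. A pseudocount of 5 ended the call of 104, array weights of 25 and median-ratio scaling of 17. Of the 93 not called, 23 were called under some alternative, and no called gene changed sign. With 3 pools per group and FPKM in place of counts, small differences in low genes may not have been detectable. The other counts of genes higher, lower, shared in total and called by the interaction moved by less than 1.5 times under the alternatives run.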

Other observations

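Of the 1456 called genes, 1082 stand in none of the gene lists used above, and the genes of this and the next paragraph were picked from them after their values were seen, so that they stand for no group of genes. Fcgbp, a mucus protein that binds the Fc part of IgG, had 3.62, 2.75 and 3.44 FPKM in CAS and 108, 121 and 151 in CAS-E2 (4.89 ± 0.33, adjusted p = 8.7e-06 by limma). Fam3d, a secreted cytokine-like protein, had 0.844, 0.273 and 0.141 against 34.3, 40.3 and 60 FPKM, and Folr1, a folate receptor, 2.67, 2.16 and 2.68 against 58.1, 63.1 and 109. Gjb2, a connexin of epithelial gap junctions, rose from 0.606, 0.366 and 0.852 to 24.7, 33.8 and 36.9 FPKM (4.34 ± 0.47), and Plac8 from 20.6, 13.5 and 13.1 to 329, 438 and 720 (4.84 ± 0.46). Bcat1, which starts the breakdown of branched-chain amino acids, and Ass1, which makes argininosuccinate, rose by 4.31 ± 0.43 and 3.34 ± 0.58, respectively.

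Some genes of peptide hormones were among them. Pcsk1, a convertase of prohormones, was at 0.889, 0.880 and 0.813 FPKM in CAS and at 27.5, 27.2 and 25.6 in CAS-E2 (3.90 ± 0.27, adjusted p = 9.7e-06), with little spread in either group. The genes of amylin (Iapp, 0, 0 and 3.67 against 46.6, 38.3 and 15.5 FPKM), vasopressin (Avp, 0.351, 0.398 and 0 against 7.55, 6.58 and 17.7) and thyrotropin-releasing hormone (Trh, 0.605, 0.0912 and 0 against 6.93, 8.66 and 16.7) rose. Nmb, neuromedin B, fell from 5.58, 4.43 and 4.13 FPKM to 0, 0 and 0.322 (-2.37 ± 0.35), and Galr2, a galanin receptor, from 34.9, 33.4 and 41 to 8.20, 7.78 and 4.47 (-2.29 ± 0.37). Also called lower were Gfra2 (-2.72 ± 0.36) and Artn (-2.34 ± 0.44) of the GDNF family signals, Ntn1 (-2.22 ± 0.32), a netrin, and Sema5a (-2.19 ± 0.41), a semaphorin. Ca2, a carbonic anhydrase, and the transcription factor Osr2 (56.6, 63 and 49.2 against 17.8, 18.5 and 10.7 FPKM) fell too.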
